A study of Mus musculus with 24 samples.

Results

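The 10 genes described mark the endothelial cells that line the liver sinusoids (Fcgr2b, Clec4g, Stab1, Stab2, Lyve1, Mrc1, Eng, Kdr, Pecam1 and Cdh5), and they were followed in livers of ethanol-fed and pair-fed mice. All probes whose accession in the scanner files maps to one of these 10 symbols were taken, which gave 15 of 41174 probes, or 10 of 17874 named genes measured. The rule goes by names and uses no measured value, but the 10 genes were chosen with earlier results of these data known. The livers came from male C57BL/6N mice, an inbred strain, and were measured whole on 24 two-colour Agilent arrays, 1 per sample, in 6 groups. The multiple-binge group (E8wMB, n = 4) was fed ethanol for 8 weeks with binges of 5 g/kg ethanol given 2 times per week. The single-binge group (E8w1B, n = 5) had 8 weeks of ethanol and 1 binge of 5 g/kg, and the ethanol-only group (E8w, n = 5) had 8 weeks of ethanol without a binge. Their controls (P8w, n = 4) were pair-fed for 8 weeks, that is, given a control diet in the amount that ethanol-fed animals eat. The 10-day binge group (E10d1B, n = 3) had 10 days of ethanol and a binge of 5 g/kg, and its controls (P10d, n = 3) were pair-fed for 10 days. No group had 10 days of ethanol without a binge, so the diet and the binge cannot be told apart at 10 days. The labels name no binge or sham dose for the pair-fed groups.

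Cy5 marked the RNA of a liver and Cy3 a reference RNA shared by all arrays, and each value below is a log2 ratio of Cy5 over Cy3, or the log2 signal of 1 channel where that is said. The reference is named as a commercial RNA of assorted mouse tissues, but other fields of the same channel name liver, so its makeup is uncertain. A difference between groups is given in log2 units with its standard error, and a gene was called where its adjusted p in limma, over all genes tested, was under 0.05. Median Cy5 signals ran from 94 to 245 intensity units per array, 0 spots were saturated, and precision is limited by the few arrays per group. Whether the arrays within a group stand for different animals is not stated, so the spread behind each p-value may be technical. The 8-week pair-fed, ethanol-only and single-binge arrays were scanned together, the 10-day groups in another scan, and the multiple-binge arrays alone in 1 more scan on another scanner. Only the multiple-binge arrays were read with the newer of 2 versions of the array grid. The difference between the multiple-binge group and its controls therefore cannot be told apart from scan, scanner and grid. That between the 2 pair-fed groups cannot be told apart from their scans. On 22 to 24 arrays each of the 15 probes was well above background in Cy5, and on all 24 in Cy3, and the 8 hepatocyte genes checked, albumin among them, were well above background on all 24.

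Sinusoidal endothelial cells form the wall of the liver's capillaries, with open pores and no continuous basement membrane. They are known as scavenger cells that take up hyaluronan, modified lipoproteins and immune complexes from the blood through stabilins, lectins and an Fc receptor. They also carry the endothelial receptors for VEGF and for ligands of the BMP family and the adhesion molecules of endothelial junctions. In whole-liver RNA, fewer of these cells and less RNA per cell cannot be told apart.

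With a binge after 10 days of ethanol, the endothelial genes that passed the test were higher than in pair-fed livers, and with a binge after 8 weeks they divided. Against 10-day pair-fed livers, Lyve1, Clec4g and Stab1 rose and no member fell, where 6.94% of 17373 genes were called, 4.14% higher and 2.8% lower. The 10 members had a median difference of 0.40, beside -0.0065 for all genes. All 3 binge arrays lay above all 3 pair-fed arrays for 7 of the 10 members, beside 13.4% of all genes. Against 8-week pair-fed livers, the single-binge group had Lyve1 and Cdh5 higher and Clec4g, Kdr and Fcgr2b lower, where 15.5% of 17435 genes were called, 7.03% higher and 8.49% lower. The members' median was -0.25 there, beside 0.024 for all genes, and the arrays did not overlap for 1 member on the higher side and 3 on the lower side (6.12% and 7.73% of all genes).

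Ethanol for 8 weeks without a binge gave no call among the 10 genes in limma, where 24 of 17389 genes (0.138%) were called, 0.0575% higher and 0.0805% lower. At an unadjusted p under 0.05, 1 member was lower (Pecam1) and 0 were higher, beside 7.14% of all genes in either direction. The members' median difference was -0.076, beside 0.0066 for all genes. Set against these ethanol-only livers, the single binge had Lyve1, Cdh5 and Pecam1 higher and Clec4g, Kdr and Fcgr2b lower (15.6% of 17554 genes called, 7.51% higher and 8.12% lower). The groups did not overlap for any of these 6 genes, where 5.75% of all genes stood apart on the higher side and 6.14% on the lower. Single-binge livers stand in both comparisons, so the 2 sets of values are not independent. Single-binge array 1 had the lowest mean of the 10 genes among all 8-week arrays, and without it 5 members passed against pair-fed livers and 6 against ethanol-only livers, with Clec4g at -0.66, Kdr at -0.54 and Lyve1 at 2.50 against pair-fed livers. In the Cy5 channel alone the members called were 1 for the binge at 10 days (1.81% of all genes), 4 for the single binge against pair-fed livers (10.8%), 4 against ethanol-only livers (8.32%), 6 for multiple binges (47.6%) and 2 for the difference between feeding times described next (1.71%).

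**Figure D1:**
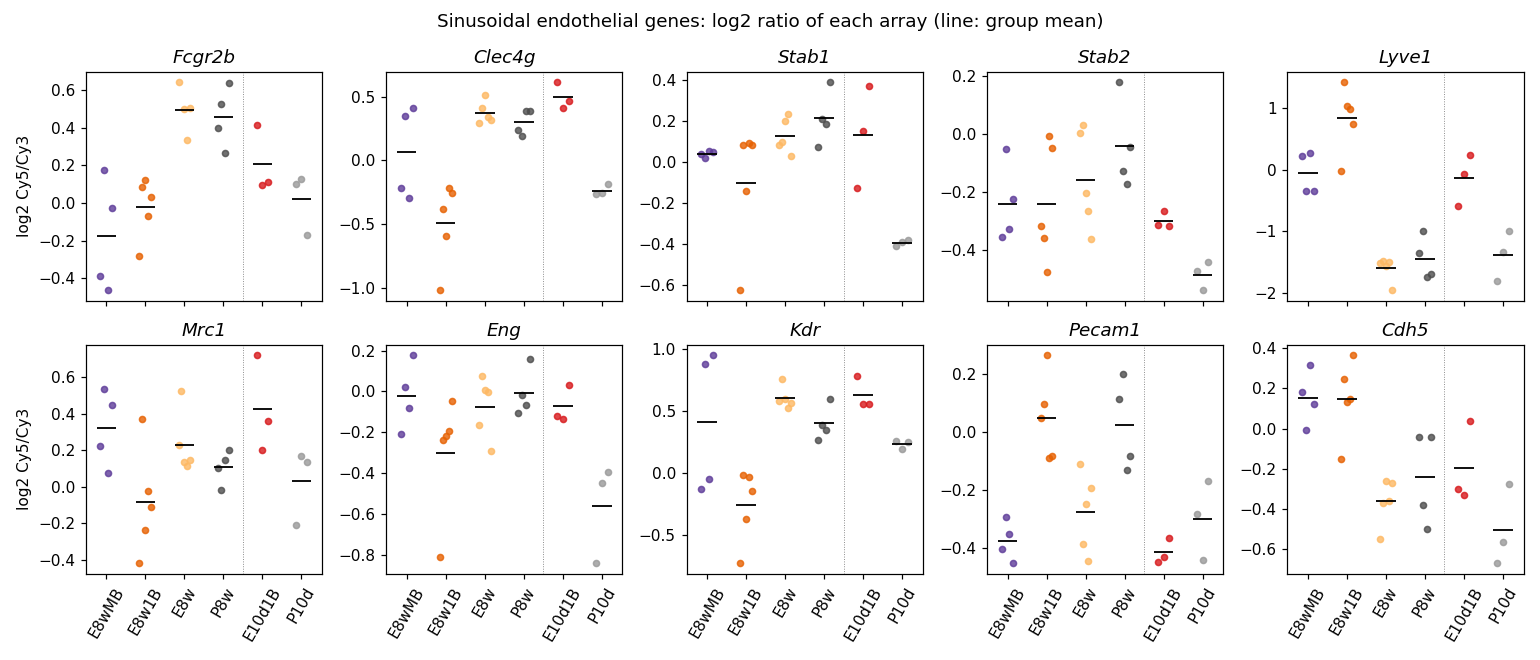
Each point is the log2 Cy5/Cy3 ratio of 1 array for the brightest probe of the gene, and each line is the group mean. The groups run from multiple-binge (E8wMB), single-binge (E8w1B), ethanol-only (E8w) and pair-fed (P8w) livers at 8 weeks to binge (E10d1B) and pair-fed (P10d) livers at 10 days, right of the dotted line. The single-binge group has the lowest mean of the 8-week groups for Clec4g and Kdr, at -0.49 ± 0.33 and -0.26 ± 0.30 (SD, n = 5), and the highest for Lyve1, at 0.83 ± 0.53.

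**Figure D2:**
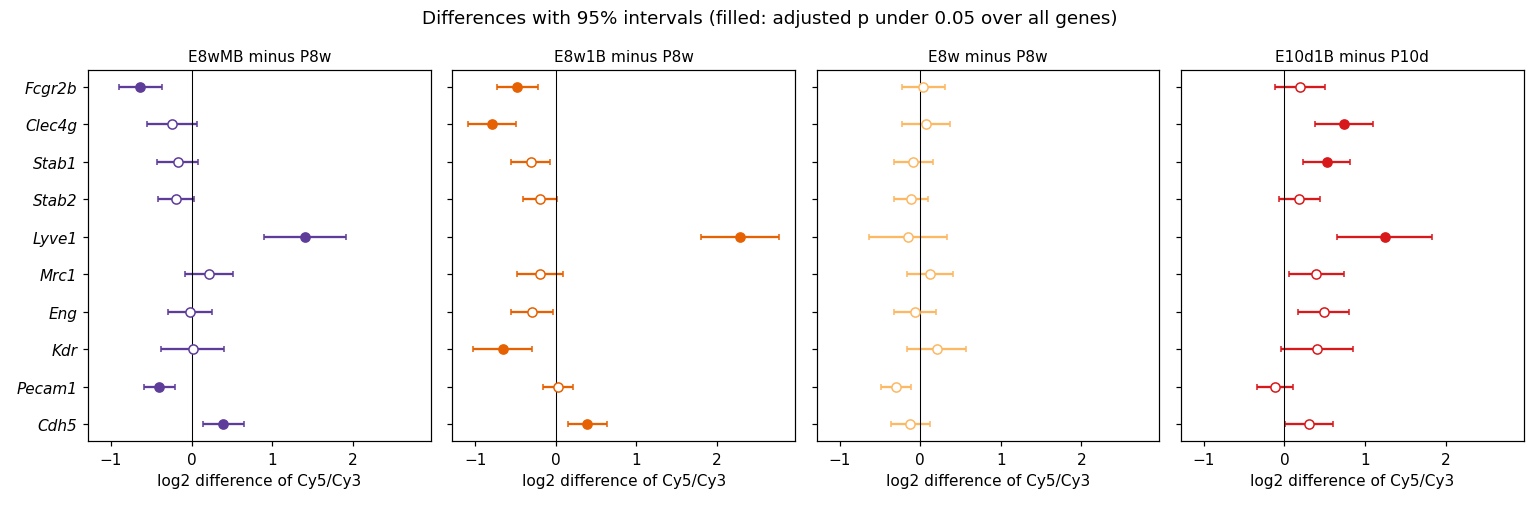
Points are log2 differences of the Cy5/Cy3 ratio and bars are 95% intervals, with filled points where the adjusted p over all genes is under 0.05. From left to right the panels show 4, 5, 0 and 3 members called. Clec4g is at -0.79 for the single binge at 8 weeks and at 0.73 for the binge at 10 days.

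The effect of a binge with ethanol was then compared between feeding times, as the 8-week difference (single-binge minus pair-fed) minus the 10-day difference (binge minus pair-fed). Clec4g, Stab1, Kdr and Eng had a lower effect at 8 weeks than at 10 days, and no member had a higher one that passed. Among all 17137 genes tested, 3.36% were called, 0.928% higher and 2.43% lower. The members' median was -0.63, beside 0.022 for all genes, and in Cy5 alone it was -0.65, beside -0.10 for all genes. Clec4g differed by -1.53 ± 0.22 (adjusted p = 0.00016), Stab1 by -0.84 ± 0.19 (adjusted p = 0.0106), Kdr by -1.06 ± 0.28 (adjusted p = 0.0349) and Eng by -0.78 ± 0.20 (adjusted p = 0.0272). Each effect is a difference within 1 scan. The 2 feeding times were scanned apart, so in the difference between effects feeding time cannot be told apart from the scan. The Clec4g value passed in all 15 fits that left out 1 array (from -1.60 to -1.40) and in all 12 other settings, the slide as a block among them (-1.38, adjusted p = 0.0191). The Stab1 value passed in all 15 fits without 1 array (-0.97 to -0.71). Stab1 did not pass with median centring (adjusted p = 0.236), with the mean of its 2 probes (-0.48, adjusted p = 0.064), with the scanner software's log ratio (0.0516) or in a fit of these groups alone (0.0542). The Stab1 call came from its brightest probe, and the second probe was at -0.12 ± 0.15 (limma, adjusted p over probes = 0.809).

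The Kdr call was lost in 10 of the 15 fits that left out 1 array. These were the fits without 8-week pair-fed arrays 2, 3 or 4 (adjusted p = 0.0558, 0.0549 and 0.0711), any of the 10-day pair-fed arrays (0.0707, 0.087 and 0.0635), any of the 10-day binge arrays (0.0971, 0.0599 and 0.0547) or single-binge array 3 (0.0594), and the Kdr value lay between -1.12 and -0.94 in all 15. The Eng call was lost without 8-week pair-fed array 4 (adjusted p = 0.0581), 10-day pair-fed array 1 (0.106) or 10-day binge arrays 1 or 3 (0.0504 and 0.0697), while its value lay from -0.86 to -0.64. In the fit with slides as blocks, neither Kdr (-0.93, adjusted p = 0.269) nor Eng (-0.59, adjusted p = 0.147) passed, and neither passed in Cy5 alone (adjusted p = 0.0696 and 0.138). Eng also missed the threshold with the scanner software's ratio (adjusted p = 0.0826), the deposited values (0.0779), median centring (0.205) and only the groups compared (0.0683), so that it passed in 6 of 12 other settings and Kdr in 10 of 12. Lyve1 was at 1.05 ± 0.37 (adjusted p = 0.138), and it passed without single-binge array 1 (1.26, adjusted p = 0.0248) and with array weights (1.16, adjusted p = 0.0446). Mrc1 was at -0.59 ± 0.22 (adjusted p = 0.16), and it passed without single-binge array 2 (-0.70, adjusted p = 0.0475).

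The promoters of the 4 genes whose effect differed between feeding times are shown as the 250 bases before the annotated start, 5′ to 3′ on the gene's own strand, from RefSeq on GRCm38.p6. Of the 10 members, 7 matched an entry of the RefSeq promoter table, and Lyve1, Pecam1 and Cdh5 are named only. Capitals mark matches on either strand to 3 motifs. The first is AGGAAG, a motif of ETS factors, which act in endothelial cells. The second is AGATAA, a motif of GATA factors. The last is TGCTGA, a motif of Maf factors. No match overlaps one of another motif, and 2 matches of the first motif share letters in Clec4g. Each line is 1 gene.
Clec4g, chr8:3720652-3720901, minus strand: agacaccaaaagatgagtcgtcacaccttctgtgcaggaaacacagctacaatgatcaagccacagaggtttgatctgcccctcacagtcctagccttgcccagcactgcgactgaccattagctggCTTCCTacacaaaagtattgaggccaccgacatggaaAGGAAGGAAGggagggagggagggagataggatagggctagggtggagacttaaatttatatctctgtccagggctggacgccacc
Stab1, chr14:31168642-31168891, minus strand: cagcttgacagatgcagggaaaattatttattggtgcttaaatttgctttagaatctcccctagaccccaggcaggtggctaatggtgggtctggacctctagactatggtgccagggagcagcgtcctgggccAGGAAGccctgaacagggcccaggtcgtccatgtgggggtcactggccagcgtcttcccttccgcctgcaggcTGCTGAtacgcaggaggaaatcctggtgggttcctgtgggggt
Eng, chr2:32646345-32646594, plus strand: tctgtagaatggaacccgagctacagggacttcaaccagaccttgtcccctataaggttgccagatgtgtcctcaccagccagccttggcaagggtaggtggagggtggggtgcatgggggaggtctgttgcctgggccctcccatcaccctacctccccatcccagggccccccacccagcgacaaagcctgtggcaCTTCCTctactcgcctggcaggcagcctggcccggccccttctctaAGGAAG
Kdr, chr5:75978456-75978705, minus strand: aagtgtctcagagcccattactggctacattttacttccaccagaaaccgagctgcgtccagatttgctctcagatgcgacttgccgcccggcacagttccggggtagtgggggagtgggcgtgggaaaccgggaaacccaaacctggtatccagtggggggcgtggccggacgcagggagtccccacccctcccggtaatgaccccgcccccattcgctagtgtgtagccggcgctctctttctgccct
AGGAAG was found in 5 of the 7 member promoters, beside 29.5% of 32851 windows of the same length. It stood in Clec4g (3 matches), Stab1 (1 match) and Eng (2 matches), and the Kdr window held none of the 3 motifs. TGCTGA was found in 1 of 7 (Stab1), beside 16.1% of all windows, and AGATAA in 0 of 7, beside 9.99%. These matches describe letters in a window and no binding was measured.

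Lyve1, a receptor for hyaluronan found on sinusoidal and lymphatic endothelium, had the largest difference of the 10 genes in each of the 4 comparisons that set a binge group against livers of the same feeding time. Its log2 ratios were 0.22, -0.35, 0.28 and -0.35 in multiple-binge livers, -0.016, 1.42, 1.04, 0.99 and 0.74 in single-binge livers and -1.52, -1.49, -1.56, -1.50 and -1.96 in ethanol-only livers, against -1.36, -1.01, -1.75 and -1.70 in 8-week pair-fed livers. At 10 days they were -0.60, -0.075 and 0.24 in binge livers, against -1.81, -1.34 and -1.0 in pair-fed livers. Every array of the 3 binge groups lay above every pair-fed and ethanol-only array of its feeding time. Lyve1 rose by 2.29 ± 0.23 in single-binge against 8-week pair-fed livers (4.88-fold, adjusted p = 8.32e-07), by 2.44 ± 0.22 against ethanol-only livers (adjusted p = 1.49e-07) and by 1.40 ± 0.25 in multiple-binge against pair-fed livers (adjusted p = 0.000542). It was higher in the single-binge array on all 4 slides that held both groups, by 2.35 to 2.79. The 10-day rise was 1.24 ± 0.29 (2.36-fold, adjusted p = 0.00832), and it lost its call without pair-fed array 1 (1.03, adjusted p = 0.068) or binge array 3 (1.05, adjusted p = 0.0541).

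For the brightest probe, the Lyve1 differences lay in the liver channel. Its log2 Cy5 signal averaged 9.65 ± 0.56 in multiple-binge, 10.60 ± 0.54 in single-binge and 8.25 ± 0.24 in ethanol-only livers, against 8.47 ± 0.29 in 8-week pair-fed livers (SD, n = 4, 5, 5 and 4). In Cy5 alone the differences from pair-fed livers were 1.18 for multiple binges, 2.13 for a single binge at 8 weeks and 1.48 at 10 days, and each passed (adjusted p = 0.000517, 3.74e-06 and 0.00571). The Cy3 signal of the reference differed by -0.22, -0.16 and 0.23, none of which passed. The second Lyve1 probe followed the first over the 24 arrays (r = 0.96, both read the same RNA) and gave 1.70 ± 0.22 for the single binge at 8 weeks and 0.99 ± 0.27 at 10 days, both called over all probes. For multiple binges the second probe was at 0.61 ± 0.23 (adjusted p over probes = 0.0625). Both channels of this probe were higher on the multiple-binge arrays. Its log2 Cy3 signal was 10.33 ± 0.27, against 8.49 ± 0.36 on 8-week pair-fed arrays, and its Cy5 signal 10.08 ± 0.56, against 7.63 ± 0.27 (SD, n = 4 each). Without a binge Lyve1 was at -0.15 ± 0.23 (95% interval -0.64 to 0.33). Of the 3 genes listed for lymphatic endothelium (Pdpn, Ccl21a and Prox1) 0 rose in any of these 3 comparisons and Pdpn fell with multiple binges (-0.50 ± 0.13), and their part in the Lyve1 result was not tested further.

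Clec4g encodes the C-type lectin LSECtin of sinusoidal endothelium. With ethanol plus a binge it moved in opposite directions from pair-fed livers at the 2 feeding times. Its log2 ratios were -0.22, 0.35, -0.30 and 0.41 in multiple-binge, -1.02, -0.38, -0.59, -0.22 and -0.26 in single-binge and 0.29, 0.41, 0.51, 0.34 and 0.32 in ethanol-only livers, against 0.24, 0.19, 0.39 and 0.39 in 8-week pair-fed livers. The single-binge arrays lay below all arrays of the ethanol-only and pair-fed groups, and the multiple-binge arrays overlapped them. At 10 days the values were 0.61, 0.41 and 0.47 in binge livers, against -0.27, -0.26 and -0.18 in pair-fed livers, and here the binge arrays lay above the controls. Clec4g fell by 0.79 ± 0.14 in single-binge against pair-fed livers (adjusted p = 0.000407) and by 0.87 ± 0.13 against ethanol-only livers (adjusted p = 8.27e-05). It was lower on all 4 and all 5 slides that held both groups. Its 10-day rise was 0.73 ± 0.17 (adjusted p = 0.0102) and was kept without any 1 array, but not in a fit with slides as blocks (0.66, adjusted p = 0.126), with median centring (adjusted p = 0.112) or in Cy5 alone (0.59, adjusted p = 0.243). In Cy5 alone the 8-week difference was -0.96 (adjusted p = 0.00173), with Cy3 at -0.17.

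Stab1 and Stab2 encode the stabilins, scavenger receptors for modified lipoproteins and, for Stab2, hyaluronan. The log2 ratios of Stab1 were -0.13, 0.15 and 0.37 in 10-day binge livers, against -0.41, -0.39 and -0.38 in 10-day pair-fed livers, so that the groups did not overlap. Stab1 rose by 0.52 ± 0.14 (adjusted p = 0.0259). That call was lost without any 1 of the pair-fed arrays (adjusted p = 0.0858, 0.0706 and 0.0578) or without binge arrays 2 or 3 (0.0923 and 0.148), while the value stayed between 0.40 and 0.65. It was also lost in Cy5 alone (0.63, adjusted p = 0.119), with median centring, and with the scanner software's ratio or the deposited one. At 8 weeks Stab1 was at -0.62, 0.082, -0.14, 0.10 and 0.084 in single-binge livers, against 0.073, 0.21, 0.19 and 0.39 in pair-fed livers, a difference of -0.31 ± 0.12 (adjusted p = 0.0736). Array 1 lay below the other 4 of its group, and without it the difference was -0.18 (adjusted p = 0.213). The difference passed without array 4 (-0.36, adjusted p = 0.0433), with the replicate block (adjusted p = 0.0436) and in Cy5 alone (-0.53, adjusted p = 0.0355). The second Stab1 probe correlated with the first at r = 0.27 over 24 arrays and was at 0.28 ± 0.12 at 10 days (adjusted p over probes = 0.212) and 0.16 ± 0.10 for the single binge at 8 weeks. The multiple-binge arrays were at 0.038, 0.020, 0.052 and 0.050, all below the pair-fed arrays, but the difference of -0.17 ± 0.12 did not pass (adjusted p = 0.336). The ethanol-only arrays were at 0.084, 0.10, 0.20, 0.23 and 0.029 and overlapped the pair-fed ones.

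Stab2 was called in no comparison. Its log2 ratios were -0.36, -0.051, -0.33 and -0.22 in multiple-binge, -0.32, -0.36, -0.48, -0.0078 and -0.047 in single-binge and 0.0051, 0.032, -0.20, -0.27 and -0.36 in ethanol-only livers, against 0.18, -0.13, -0.17 and -0.045 in 8-week pair-fed livers. The 4 groups overlapped. At 10 days they were -0.31, -0.27 and -0.32 in binge livers, against -0.47, -0.54 and -0.44 in pair-fed livers, which did not overlap. The difference was 0.19 ± 0.13 at 10 days (95% interval -0.074 to 0.44) and -0.20 ± 0.10 for the single binge at 8 weeks (-0.41 to 0.013).

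Fcgr2b encodes the inhibitory Fc-gamma receptor, through which sinusoidal endothelium takes up immune complexes, and B cells and macrophages carry it too. With its brightest probe, the log2 ratios were -0.39, 0.17, -0.46 and -0.024 in multiple-binge, -0.28, 0.084, 0.12, -0.067 and 0.032 in single-binge and 0.64, 0.50, 0.33 and 0.51 in ethanol-only livers, against 0.40, 0.52, 0.27 and 0.64 in 8-week pair-fed livers, and ethanol-only array 2 was left out because its spot was marked by the scanner software. All arrays of both binge groups lay below the ethanol-only and pair-fed arrays. Fcgr2b fell by 0.48 ± 0.12 with a single binge (adjusted p = 0.00883), by 0.52 ± 0.12 against ethanol-only livers (adjusted p = 0.00493) and by 0.63 ± 0.13 with multiple binges (adjusted p = 0.00181). In Cy5 alone none of the 3 passed (-0.42, -0.57 and 0.048), and the Cy3 signal of this probe differed by 0.68 between multiple-binge and pair-fed arrays. The multiple-binge call was lost with the mean of the 3 probes as well (-0.19, adjusted p = 0.316). The 2 single-binge calls were also lost with median centring (adjusted p = 0.132 and 0.123).

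The 3 Fcgr2b probes differed in size and, for multiple binges, in sign. In the newer array grid the first and second are annotated to the same transcript and the third to another transcript of the gene. In the older grid all 3 are annotated to the same transcript. The second probe was at 0.27 ± 0.18 with multiple binges and at -0.76 ± 0.17 with a single binge at 8 weeks (adjusted p over probes = 0.00331). At 10 days it read 0.21, 0.25 and 0.34 in binge livers, against -0.66, -0.88 and -0.80 in pair-fed livers. The brightest probe read 0.42, 0.10 and 0.11 in binge livers, against 0.10, 0.13 and -0.17 in pair-fed livers. The groups stood apart for the second probe and overlapped for the brightest. The difference of the second probe was 1.04 ± 0.20 (adjusted p over probes = 0.00282), while the brightest probe was at 0.19 ± 0.15 and the third at 0.51 ± 0.18, neither of which passed. Between feeding times the effect of a binge with ethanol differed by -1.81 ± 0.26 for the second probe (adjusted p over probes = 0.000221), -0.67 ± 0.19 for the brightest and -0.68 ± 0.24 for the third. All 3 values were negative, and over all probes 1 of them passed. With Fcgr2b as a gene the difference between feeding times was not called in the main setting (adjusted p = 0.0599). It was called with the mean of the probes (-1.05, adjusted p = 0.00204), the scanner software's ratio (-0.83, 0.0348), the deposited values (0.0278) and marked spots kept (0.0469). The mean of the probes was also called at 10 days (0.58, adjusted p = 0.0161). Over the arrays the 3 pairs of probes correlated at r = 0.28, 0.58 and 0.51.

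**Figure D3:**
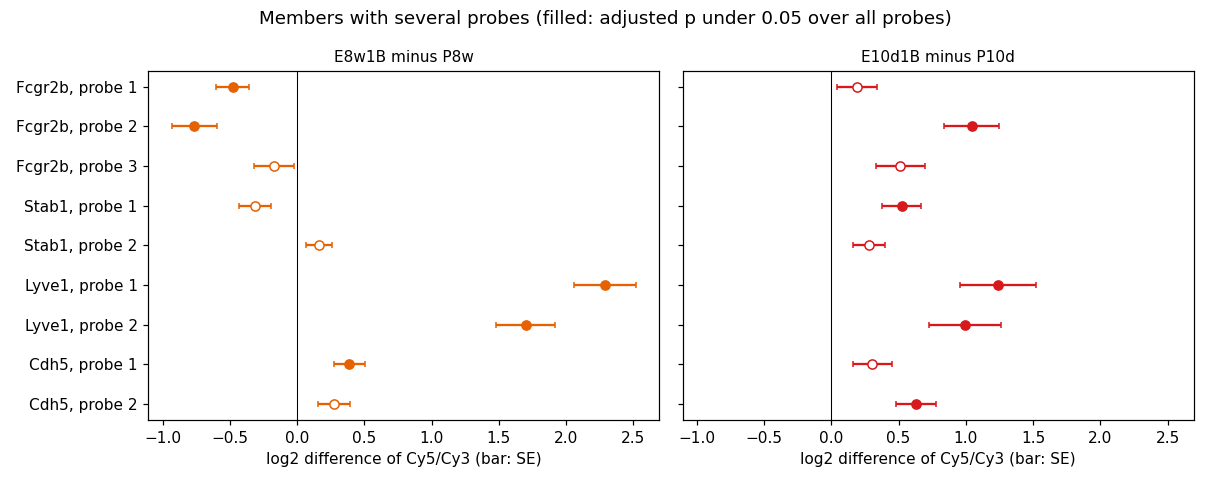
Points are log2 differences of the Cy5/Cy3 ratio for each probe of the 4 members with more than 1 probe, with bars of 1 SE, and points are filled where the adjusted p over all probes is under 0.05. Probe 1 is the brightest in Cy5. Both Lyve1 probes are called on both panels, at 2.29 and 1.70 for the single binge at 8 weeks, while Fcgr2b probe 2 is at -0.76 for the single binge at 8 weeks and 1.04 at 10 days.

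Mrc1 encodes the mannose receptor, which sinusoidal endothelium shares with macrophages. It was called in no comparison. The log2 ratios were 0.72, 0.20 and 0.36 in 10-day binge livers, against -0.21, 0.17 and 0.13 in pair-fed livers, which did not overlap, and the difference was 0.40 ± 0.17 (adjusted p = 0.18). Binge array 1, the highest, had no pair-fed array beside it on its slide, and the fit with the slide as a block gave 0.13 (adjusted p = 0.787). At 8 weeks the log2 ratios of Mrc1 were 0.22, 0.54, 0.075 and 0.45 in multiple-binge, -0.42, 0.37, -0.24, -0.024 and -0.11 in single-binge and 0.23, 0.52, 0.14, 0.11 and 0.15 in ethanol-only livers, against 0.10, -0.020, 0.15 and 0.20 in pair-fed livers, and single-binge arrays took both the lowest place and one above all pair-fed arrays. With a single binge it was -0.19 ± 0.14 against pair-fed livers (95% interval -0.48 to 0.092; -0.11 without array 1 and -0.31 without array 2) and -0.31 ± 0.13 against ethanol-only livers (adjusted p = 0.112), where leaving out single-binge array 2 gave a call (-0.43, adjusted p = 0.0167).

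Kdr, which encodes the main VEGF receptor of endothelium, fell with a single binge at 8 weeks. Its log2 ratios were -0.13, 0.88, -0.047 and 0.95 in multiple-binge, -0.73, -0.016, -0.37, -0.030 and -0.14 in single-binge and 0.58, 0.76, 0.60, 0.53 and 0.57 in ethanol-only livers, against 0.27, 0.39, 0.35 and 0.60 in 8-week pair-fed livers. Every single-binge array was below 0 and every ethanol-only and pair-fed array above it, while multiple-binge arrays 1 and 3 lay below all pair-fed arrays and arrays 2 and 4 above them. The fall was 0.66 ± 0.18 against pair-fed livers (adjusted p = 0.0119) and 0.86 ± 0.17 against ethanol-only livers (adjusted p = 0.000766). With the slide as a block these were -0.60 (adjusted p = 0.0701, not passing) and -0.86 (adjusted p = 0.00578), lower on all 4 and all 5 slides. In Cy5 alone they were -0.74 and -0.95, both called. At 10 days Kdr was at 0.78, 0.56 and 0.56 in binge livers, against 0.26, 0.20 and 0.25 in pair-fed livers. The groups did not overlap, and the difference of 0.40 ± 0.22 did not pass (adjusted p = 0.333).

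Eng encodes endoglin, a co-receptor for BMP ligands on endothelium. At 10 days its log2 ratios were -0.12, -0.13 and 0.033 in binge livers, against -0.84, -0.45 and -0.39 in pair-fed livers. The groups did not overlap, and the difference was 0.49 ± 0.15 (adjusted p = 0.0555), which passed without pair-fed array 3 (0.57, adjusted p = 0.0495), with array weights (0.0294), the replicate block (0.0209) and the slide as a random block (0.0425). At 8 weeks the single-binge arrays were at -0.81, -0.24, -0.22, -0.20 and -0.045, against -0.11, -0.019, -0.065 and 0.16 in pair-fed livers. Array 1 lay far below the other 4, whose values overlapped those of pair-fed livers. The difference was -0.29 ± 0.13 (adjusted p = 0.128), or -0.17 without array 1. The log2 ratios were -0.21, 0.022, -0.083 and 0.18 in multiple-binge and -0.17, 0.074, 0.0076, -0.0011 and -0.29 in ethanol-only livers. Against pair-fed livers the multiple-binge difference was -0.014 ± 0.13 (95% interval -0.29 to 0.26).

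Cdh5 encodes VE-cadherin of endothelial junctions and Pecam1 the junctional adhesion molecule CD31, and both are carried by blood vessels of other kinds as well. The log2 ratios of Cdh5 were 0.18, -0.0091, 0.31 and 0.12 in multiple-binge, -0.15, 0.24, 0.13, 0.15 and 0.36 in single-binge and -0.55, -0.37, -0.26, -0.36 and -0.27 in ethanol-only livers, against -0.043, -0.38, -0.50 and -0.042 in pair-fed livers. The multiple-binge arrays all lay above the pair-fed ones, and the single-binge arrays overlapped the pair-fed but not the ethanol-only ones. Cdh5 rose by 0.39 ± 0.12 with multiple binges (adjusted p = 0.0266), by 0.39 ± 0.12 with a single binge (adjusted p = 0.0247) and by 0.51 ± 0.11 with a single binge against ethanol-only livers (adjusted p = 0.00217). The multiple-binge call was lost without pair-fed arrays 2 or 3 (adjusted p = 0.0898 and 0.109) or multiple-binge arrays 1 or 3 (0.0549 and 0.0863), and with median centring it was lost at 0.18 (adjusted p = 0.366). The single-binge call against pair-fed livers was lost without pair-fed arrays 2 or 3 (0.0825 and 0.117) or single-binge arrays 2 or 5 (0.0525 and 0.0696) or with only the groups compared (0.0854), and neither call was made in Cy5 alone. With the slide as a block the single-binge difference was 0.45 (adjusted p = 0.00521). At 10 days the ratios were -0.30, -0.33 and 0.039 in binge livers, against -0.67, -0.56 and -0.28 in pair-fed livers, which overlapped. The brightest probe was at 0.31 ± 0.14 (adjusted p = 0.238) and the second probe at 0.63 ± 0.15 (adjusted p over probes = 0.0117). With the mean of the probes Cdh5 was called at 10 days (0.47, adjusted p = 0.0287). At 8 weeks the second probe was at 0.26 ± 0.13 with multiple binges and 0.27 ± 0.12 with a single binge. Against ethanol-only livers it was at 0.32 ± 0.11. None of these passed (adjusted p over probes = 0.15, 0.17 and 0.0784). Between feeding times it was at -0.36 ± 0.19 and the brightest probe at 0.082 ± 0.18, and neither passed.

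The log2 ratios of Pecam1 were -0.40, -0.29, -0.35 and -0.45 in multiple-binge, 0.049, 0.095, 0.26, -0.088 and -0.082 in single-binge and -0.11, -0.38, -0.25, -0.44 and -0.19 in ethanol-only livers, against 0.11, 0.20, -0.13 and -0.083 in pair-fed livers. All multiple-binge arrays lay below the pair-fed ones, and Pecam1 fell by 0.40 ± 0.095 (adjusted p = 0.00487), with Cy5 at -0.57 and Cy3 at -0.17. It rose by 0.32 ± 0.085 in single-binge against ethanol-only livers (adjusted p = 0.0097), but was at 0.11 in Cy5 alone (adjusted p = 0.789), with Cy3 at -0.21. Median centring also ended that call (adjusted p = 0.0518). Without a binge it was at -0.30 ± 0.090 against pair-fed livers (adjusted p = 0.254) and lower on all 4 slides. At 10 days the ratios were -0.45, -0.43 and -0.37 in binge livers, against -0.28, -0.44 and -0.17 in pair-fed livers. Pecam1 was the only member with a negative difference at 10 days, at -0.12 ± 0.11 (95% interval -0.34 to 0.11).

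**Figure D4:**
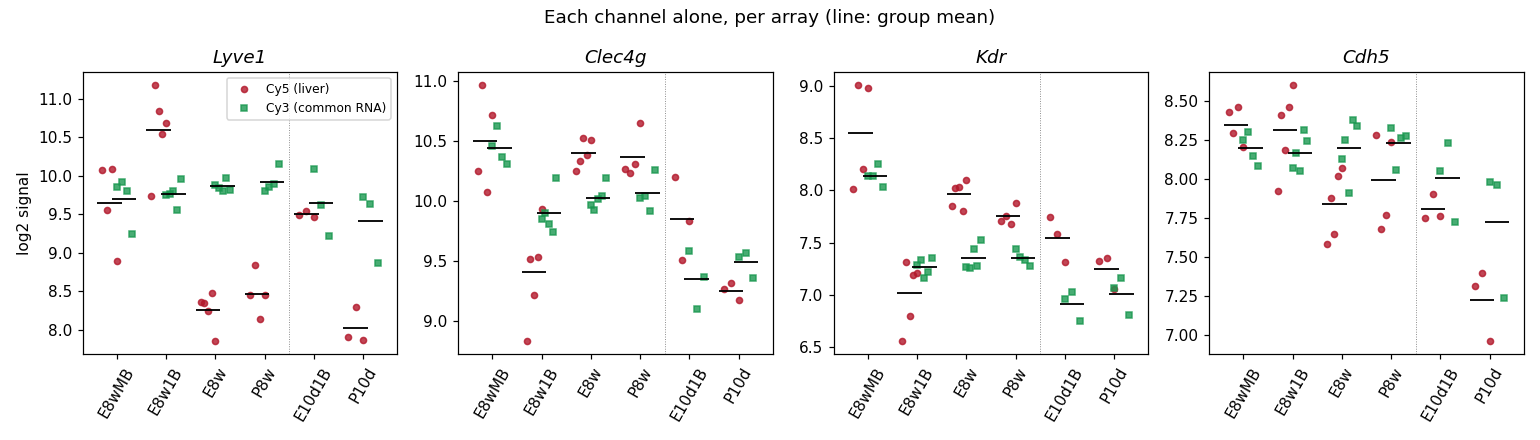
Each point is the log2 signal of 1 array in Cy5 (liver RNA, circles) or Cy3 (common reference RNA, squares), with lines at group means, for 4 members. For Lyve1 the Cy5 points move with the binge while the Cy3 mean was 9.84 over the single-binge, ethanol-only and 8-week pair-fed arrays, 9.52 over the 10-day arrays and 9.70 over the multiple-binge arrays. For Kdr the Cy3 mean of the multiple-binge arrays, scanned alone, is 8.14 ± 0.089, against 7.35 ± 0.067 in 8-week pair-fed livers (SD, n = 4 each).

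Multiple binges against 8-week pair-feeding gave 4 calls among the 10 genes, Lyve1 and Cdh5 higher and Fcgr2b and Pecam1 lower, where 20.8% of 17105 genes were called, 7.52% higher and 13.3% lower. For 2 members the multiple-binge arrays all lay above the pair-fed arrays and for 3 below them, beside 11.8% and 14.4% of all genes. Cy3 holds the same reference RNA on every array, yet 48% of genes and 5 of the 10 members (Clec4g, Stab1, Stab2, Mrc1 and Kdr) were called in Cy3 alone in this comparison, beside 0.00574% of genes and 0 members between single-binge and pair-fed arrays. Stab2 was at 0.38 in Cy5 (adjusted p = 0.0368) and 0.57 in Cy3 (adjusted p = 0.00164), and Kdr at 0.80 and 0.79 (adjusted p = 0.00164 and 3.93e-07). Their ratios differed by -0.20 ± 0.11 and 0.012 ± 0.19. Of the members called in the ratio, Lyve1 and Pecam1 were also called in Cy5, and none of the 4 was called in Cy3.

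The pair-fed groups, which differ in feeding time and in scan, were compared as 8 weeks against 10 days. Stab1 was higher at 8 weeks by 0.61 ± 0.13 (adjusted p = 0.0212) and Eng by 0.55 ± 0.14 (adjusted p = 0.0492), where 1.63% of 17254 genes were called, 1.16% higher and 0.469% lower, and 7 members had all 8-week arrays above all 10-day arrays (9.01% of all genes). Clec4g was at 0.54 ± 0.16 (adjusted p = 0.0921) and Stab2 at 0.44 ± 0.12 (adjusted p = 0.0548), and Clec4g passed in 3 other settings and Stab2 in 2. The reference channel differed for 5.47% of genes, with Cy3 at 0.58 for Clec4g, 0.51 for Stab1 and -0.57 for Pecam1 (adjusted p = 0.00992, 0.0382 and 0.0253), and feeding time cannot be told apart from the scan. The Eng call was lost in each of the 7 fits without 1 array (adjusted p = 0.0644 to 0.217) and in 5 other settings (0.0512 to 0.105). The Stab1 call was lost without 8-week arrays 2 or 3 (adjusted p = 0.0721 and 0.0555) or any of the 10-day arrays (0.0726, 0.0929 and 0.0631), and with the scanner software's ratio, the deposited values and the mean of its probes (0.0672, 0.0642 and 0.0653), and the second Stab1 probe was at 0.14 ± 0.11. These pair-fed arrays are the controls of the effects above, so the pair-fed difference and the difference between effects share them.

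The members differed from each other over the 24 arrays. Of their 45 pairs, the correlation of log2 ratios ran from r = -0.60 (Fcgr2b and Lyve1) to 0.92 (Clec4g and Kdr), with a median of 0.24. With the group means removed the range was -0.28 to 0.91 and the median 0.28, with Clec4g and Kdr again the highest pair. Pairs share arrays and their RNA, so these values describe the arrays and carry no test. Multiple-binge arrays 1 and 3, on different slides, were below arrays 2 and 4 for Clec4g and Kdr and above them for Lyve1. The mean of the 10 members over single-binge array 1 was -0.43, against -0.048 to 0.13 on the other 4.

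Outside the 10 members, the genes whose ratios followed the members' mean most closely over the 24 arrays, among 13493 genes, were Maf (r = 0.90), Tie1 (0.87), Ptprb (0.86), Bmp2 (0.85) and Egfl7 (0.83). With group means removed their r was 0.91, 0.85, 0.84, 0.84 and 0.76. Maf encodes a transcription factor, Tie1 and Ptprb an endothelial receptor kinase and phosphatase, Bmp2 a ligand that liver endothelium secretes, and Egfl7 a protein secreted by endothelium.

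Other genes of sinusoidal endothelium were described from a list of 15, of which 14 could be tested. At 10 days 4 rose and 0 fell, with a median of 0.35, and among them the water channel gene Aqp1 rose by 1.10 ± 0.15, the Wnt ligand gene Wnt2 by 0.61 ± 0.13 and the chemokine-scavenging receptor gene Gpr182 by 0.56 ± 0.12. With a single binge at 8 weeks 2 rose and 2 fell (median 0.014), and the DNase gene Dnase1l3 fell by 1.0 ± 0.15, the endocytosis gene Ehd3 fell by 0.71 ± 0.18 and Aqp1 rose by 0.70 ± 0.12. Against ethanol-only livers 3 rose and 3 fell, with Dnase1l3 at -1.10 ± 0.14, Aqp1 at 0.62 ± 0.12 and Ehd3 at -0.83 ± 0.17. Without a binge 0 of 14 passed. Between feeding times Dnase1l3 alone of the 14 passed, at -1.53 ± 0.23 (adjusted p = 0.000252). With multiple binges Wnt2 (0.52 ± 0.11) and Aqp1 (0.39 ± 0.13) rose.

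Of 17 genes of endothelium in general, 16 could be tested at 10 days, where 6 rose and 0 fell with a median of 0.39. Nrp1, a co-receptor for VEGF, rose by 1.57 ± 0.26, Ramp2, part of the adrenomedullin receptor, by 0.94 ± 0.17 and the tight junction gene Cldn5 by 0.73 ± 0.15. With a single binge at 8 weeks 1 of 17 rose, the VEGF receptor gene Flt1 by 0.38 ± 0.11, and the median was -0.045. Against ethanol-only livers Flt1 (0.31 ± 0.10) and Ramp2 (0.40 ± 0.13) rose, and the sphingosine-1-phosphate receptor gene S1pr1 fell (-0.62 ± 0.20). Between feeding times the effect was lower at 8 weeks for 3 of 16 and higher for 0, with Nrp1 at -1.51 ± 0.33, Cldn5 at -0.79 ± 0.19 and Egfl7 at -0.74 ± 0.21. With multiple binges the ratios of Clec14a (-0.46 ± 0.11) and Sox17 (-0.44 ± 0.14) fell, but Clec14a had the opposite sign in Cy5 alone. Egfl7 was higher in 8-week than in 10-day pair-fed livers (0.75 ± 0.15).

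Ligands, receptors and targets of the VEGF and BMP pathways, in which Kdr and Eng act, were a list of 15. At 10 days 2 rose, the TGF-beta receptor gene Tgfbr2 by 1.10 ± 0.20 and Gdf2, which encodes the Eng ligand BMP9, by 0.63 ± 0.17. With a single binge at 8 weeks 3 rose and 2 fell, with Tgfbr2 at 1.27 ± 0.17, the Kdr ligand gene Vegfa at -0.81 ± 0.14 and the VEGF-family gene Pgf at 0.42 ± 0.10. Against ethanol-only livers Vegfa fell (-0.81 ± 0.12) and Tgfbr2 (0.98 ± 0.16) and Pgf (0.34 ± 0.10) rose. Between feeding times the effect was higher at 8 weeks for Pgf (0.79 ± 0.16) and the BMP receptor gene Bmpr2 (0.69 ± 0.15). With multiple binges the ratios of Pgf (0.49 ± 0.11) and the inhibitor gene Smad6 (0.38 ± 0.11) rose and that of Smad7 (-0.35 ± 0.11) fell. In Cy5 alone Pgf and Smad7 had the opposite sign.

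Among 8 genes linked to capillary-like change or activation of endothelium, Plvap, of fenestral diaphragms, rose at 10 days (0.50 ± 0.11), and Cd34 rose with a single binge at 8 weeks (0.45 ± 0.12). Against ethanol-only livers both rose, Plvap by 0.35 ± 0.086 and Cd34 by 0.45 ± 0.11. Of 5 tested genes of hyaluronan metabolism, the substrate that Lyve1 and Stab2 bind, the hyaluronidase genes Hyal1 and Hyal2 passed with a single binge at 8 weeks, at -0.52 ± 0.083 and 0.43 ± 0.11, and at -0.40 ± 0.078 and 0.47 ± 0.10 against ethanol-only livers, and 0 passed at 10 days. The Hyal1 effect was lower at 8 weeks than at 10 days (-0.49 ± 0.13, adjusted p = 0.0409). Of 5 other Fc receptor genes 0 passed in either comparison, and Fcgr3 fell with multiple binges (-0.41 ± 0.15).

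Markers of other liver cells moved in some of the same comparisons. At 10 days 0 of 12 macrophage genes passed (median 0.29), and their list mean per array was 0.071 to 0.13 in binge livers, against -0.27 to -0.055 in pair-fed livers. Of 7 stellate cell genes 2 rose, Lrat by 0.96 ± 0.23 and Dcn by 0.63 ± 0.16, with list means of 0.10 to 0.25 in binge livers, against -0.40 to -0.054 in pair-fed livers. Both lists stood apart between the groups, as the mean of the members did. With a single binge at 8 weeks 1 of 11 macrophage genes rose (Cd163, 0.77 ± 0.20) and 2 fell (Cd5l, -0.77 ± 0.15, and Adgre1, -0.68 ± 0.17). Their list mean ran from -0.68 to 0.39 per array in single-binge livers, against -0.22 to 0.39 in pair-fed livers. Of 7 stellate genes 1 rose (Hgf, 0.69 ± 0.15) and 2 fell (Reln, -0.67 ± 0.12, and Colec11, -0.40 ± 0.10), and of 5 neutrophil genes 2 rose (S100a9, 1.12 ± 0.20, and S100a8, 0.61 ± 0.15). Of 2 tested platelet genes 0 passed in any of these comparisons. Of 4 B cell genes 1 was called with multiple binges, Cd79a (-1.21 ± 0.22), and the median of the list was -0.030. Of 6 tested hepatocyte genes 1 passed at 10 days, Ttr (0.84 ± 0.24), and of 7 tested 1 passed with a single binge at 8 weeks, Asgr1 (-0.48 ± 0.074). Between feeding times the effect was lower at 8 weeks for 1 of 11 macrophage genes (Cd5l, -1.15 ± 0.23) and 1 of 6 hepatocyte genes (Ttr, -1.31 ± 0.31). It was also lower for 2 of 7 stellate genes (Colec11, -0.78 ± 0.16, and Reln, -0.79 ± 0.19). All 10 members are carried by endothelium, and several of them, such as Mrc1, Fcgr2b and Lyve1, also by macrophages or lymphocytes of some kinds.

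Against ethanol-only livers the single binge gave calls for markers of other cells as well. Of 12 macrophage genes Cd163 rose (0.59 ± 0.19) and Cd5l fell (-0.60 ± 0.13). Of 7 stellate genes 2 rose and 2 fell, with Hgf at 0.88 ± 0.14, Des at 0.27 ± 0.076 and Colec11 at -0.31 ± 0.10. Of 5 neutrophil genes S100a8 (0.60 ± 0.14) and S100a9 (0.73 ± 0.19) rose and Csf3r fell (-0.74 ± 0.21), and of 7 hepatocyte genes Tat rose (1.34 ± 0.29) and Asgr1 (-0.44 ± 0.069) and Apoa2 (-0.38 ± 0.12) fell. With multiple binges 1 of 11 macrophage genes (Csf1r, -0.40 ± 0.11) and 1 of 6 stellate genes (Reln, -0.69 ± 0.12) fell. Of 7 hepatocyte genes Asgr1 fell (-0.52 ± 0.078) and Apoa2 rose (0.56 ± 0.14). Of 5 neutrophil genes S100a9 (0.67 ± 0.21) and S100a8 (0.47 ± 0.16) rose. In Cy5 alone 4 of the listed genes called with multiple binges had the opposite sign, Asgr1 at 0.84, Smad7 at 0.98, Clec14a at 0.10 and Pgf at -1.28. Between pair-fed groups 2 of 7 stellate genes, Colec11 (0.57 ± 0.12) and Reln (0.64 ± 0.13), were higher at 8 weeks. The part of these other cells in the members' differences was not tested.

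**Figure D5:**
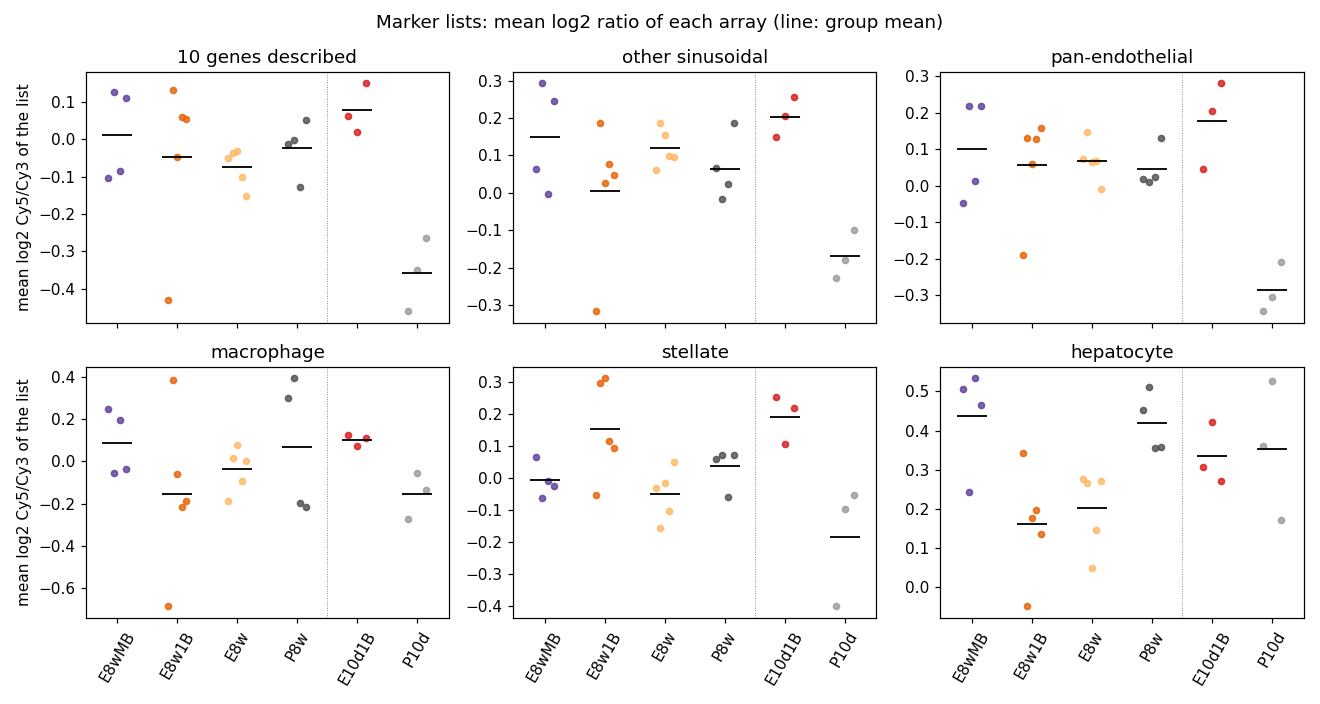
Each point is the mean log2 Cy5/Cy3 ratio of a marker list on 1 array, and lines are group means. Over the 10 described genes the 10-day binge arrays lie between 0.019 and 0.15, against -0.46 to -0.26 in 10-day pair-fed livers, while single-binge arrays at 8 weeks lie between -0.43 and 0.13, against -0.13 to 0.050 in pair-fed livers. Macrophage means have a wider spread in the 8-week single-binge and pair-fed groups than in the others.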

How the data were processed

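Total RNA of whole mouse liver (Cy5) and of a common reference (Cy3) was hybridised together on 24 Agilent arrays, 1 per sample, and the labels do not say that the samples of a group are separate animals. Per the file headers and the submitters' processing notes, the authors scanned the arrays and read spot intensity, background and flags with Agilent Feature Extraction 11.5.1.1, whose log10 ratio of processed signals was deposited as well. The deposited log2 values equal that log10 ratio on the log2 scale, of Cy5 over Cy3 (with a slope of 1.00), and both were used as alternatives only. The files' coordinates are of build mm8 and none were used, and RefSeq tables (GRCm38.p6) gave gene names and promoters.

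Median spot signals were corrected with limma's normexp (offset 50) and normalised by loess within each array, and single channels were scaled with Aquantile. Spots marked as outliers by the scanner software were left out (1.34 to 7.64% per array), the 245 probes with several spots were averaged, and of 41174 probes the 36648 whose Cy5 signal was well above background on 3 or more arrays were kept. Probes were named through the accessions of the newer of the 2 array grids, that of the multiple-binge arrays (27816 probes named, 24375 in the older). Each gene was represented by its probe brightest in Cy5 among those with values on 2 or more arrays in each group. limma 3.58.1 (R 4.3.3, statmod 1.5.0) fitted all 6 groups together, with Benjamini-Hochberg adjustment over all genes and a threshold of 0.05, and was tested on simulated data. Median signals per array were 94 to 245 in Cy5 and 160 to 498.5 in Cy3. No 2 arrays held identical values.

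The members, lists and tests were chosen with earlier results of these data known. All members are named with all their probes, as are up to 3 called genes per other list and comparison, by lowest adjusted p, and the 5 genes most like the members' mean. Alternatives were the scanner software's ratio, the deposited values, median centring, Cy5 alone, the slide as a fixed or (added after seeing the data) a random block, the replicate number as a block, other filters, probes, samples and weights, and each array left out in turn.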

Additional observations from a re-analysis of the deposited data

Results flagged for a closer look

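In 60 sets of arrays (a gene's probe in a group of 4 or more) the highest or lowest array was compared with the rest, and 3 arrays stood apart by Dixon's criterion, where chance marks about 1 set in 20. Lyve1 was at -1.96 on ethanol-only array 5, while the other 4 arrays of that group lay between -1.56 and -1.49. Mrc1 was at 0.52 on ethanol-only array 2, with the others between 0.11 and 0.23. Eng was at -0.81 on single-binge array 1, with the others between -0.24 and -0.045, and this array also had the lowest mean over the 10 genes (-0.43) and over the macrophage list (-0.68).

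The effect of a binge with ethanol differed between 8 weeks and 10 days of feeding for 4 of the 10 genes by a test of the difference itself in limma. The difference was -1.53 ± 0.22 for Clec4g, -0.84 ± 0.19 for Stab1, -0.78 ± 0.20 for Eng and -1.06 ± 0.28 for Kdr, on the log2 scale. All 3 arrays of the 10-day binge group were above their controls for these 4 genes. At 8 weeks all 5 single-binge arrays were below their controls for Clec4g and Kdr, while for Stab1 and Eng the groups overlapped.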

How the results depend on the processing

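Array number limits every value, and the multiple-binge group, scanned alone, has no slide in common with its controls. Of the 820 values of single genes under the planned and added settings other than leaving out an array, 734 kept their direction and side of the threshold, 39 lost a call, 22 gained one and 25 changed sign. Without 1 array in turn the counts were 576, 41, 5 and 18. The causes were not tested.

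Of the members called at 10 days (3), 1 remained in number with median centring, 1 in Cy5 alone and 5 with the mean of all kept probes, and 1 to 3 without 1 array. Between pair-fed groups (2 called) there were 0 with the scanner software's ratio, 0 with the deposited values, 4 in Cy5 alone, 1 without the filter on dim probes, 0 with the mean of probes and 4 with array weights, and 0 to 1 without 1 array. For the difference between feeding times (4 called) there were 2 with median centring, 2 in Cy5 alone, 2 with the slide as a fixed block and 2 with only the groups compared, and 2 to 5 without 1 array. Without 1 array there were 4 to 6 for the single binge against pair-fed livers (5 called), 6 to 7 against ethanol-only livers (6), 3 to 4 for multiple binges (4) and 0 in each fit for ethanol alone (0).

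These values changed sign, and none of them was called in the main setting except Fcgr2b for multiple binges. With the scanner software's ratio and the deposited values, ethanol alone gave -0.040 and -0.064 for Fcgr2b and 0.099 and 0.099 for Cdh5, the single binge gave -0.017 and -0.017 for Pecam1, and multiple binges gave 0.0083 and 0.0083 for Eng and -0.17 and -0.17 for Kdr. Kdr was at -0.20 there with median centring, and Eng at 0.020 with array weights and 0.0015 with the slide as a random block. In Cy5 alone Pecam1 was at 0.022 at 10 days, Stab2 at 0.0022 with ethanol alone, and Fcgr2b, Clec4g and Stab2 at 0.048, 0.14 and 0.38 with multiple binges. Between pair-fed groups Lyve1 was at 0.069 with median centring and 0.45 in Cy5, and Pecam1 at -0.25 in Cy5. Between feeding times Pecam1 was at -0.0029 and Cdh5 at -0.26 in Cy5, and Cdh5 at -0.14 with the mean of probes. Eng was at 0.0084 with ethanol alone and the slide as a fixed block. Without 1 array in turn, Fcgr2b ran from -0.026 to 0.097 with ethanol alone, Pecam1 from -0.031 to 0.081 with a single binge against pair-fed livers, Eng from -0.081 to 0.047 and Kdr from -0.17 to 0.19 with multiple binges, Lyve1 from -0.28 to 0.12 and Mrc1 from -0.042 to 0.15 between pair-fed groups, and Cdh5 from -0.032 to 0.20 between feeding times.

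Same-numbered arrays showed no clear tendency to deviate together (r from -0.26 to 0.29 in 23 pairs, 9 above 0.1, and 8 of 23 arrays correlated best with their own number). With so few arrays this check cannot exclude that the numbers pair the samples, and the main setting did not use them. With the replicate block the members called were 4 at 10 days, 0 with ethanol alone, 6 and 6 with the single binge against pair-fed and ethanol-only livers, 4 with multiple binges, 3 between pair-fed groups and 4 between feeding times.

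Counts of called genes over the whole table moved as follows. At 10 days 1206 genes were called, against 403 with median centring, 314 in Cy5 alone and 661 with the slide as a fixed block. For ethanol alone (24 genes) there were 12 with the scanner software's ratio, 14 with the deposited values, 13 with median centring, 12 with the replicate block, 40 with marked spots kept, 84 with array weights and 44 with the slide as a random block. The single binge gave 2705 against pair-fed livers (1301 with median centring, 1741 with only the groups compared) and 2744 against ethanol-only livers (1395 with median centring, 1460 in Cy5). Multiple binges gave 3559 (8150 in Cy5). The pair-fed groups gave 281 (1726 in Cy5, 804 with the replicate block, 751 with array weights), and the difference between feeding times 575 (184 with median centring, 293 in Cy5, 223 with the slide block). Without 1 array the counts ran from 587 to 1230 at 10 days, 6 to 38 for ethanol alone, 2216 to 3671 for multiple binges, 22 to 501 for the pair-fed groups and 338 to 715 between feeding times.

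The share of called genes that was higher also moved with the scaling. It was 72.7% with median centring at 10 days (59.7% in the main setting). With a single binge it was 17.8% in Cy5 against pair-fed livers (45.3%), and 61.3% with median centring and 28.3% in Cy5 against ethanol-only livers (48.1%). For ethanol alone it was 16.7% in Cy5 (41.7%). For multiple binges it was 50.9% with the scanner software's ratio, 51.5% with the deposited values and 46.4% in Cy5 (36.1%). Between pair-fed groups it was 97% with median centring (71.2%), and between feeding times 7.85% in Cy5 (27.7%).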
